A study of Mus musculus with 6 samples.

Results

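The transcripts of 10 plasma protein genes of the liver were followed across 6 Illumina bead arrays of mouse heart and skeletal muscle. They are Apoa1, Apoa2, Apoc1, Ttr, Fga, Fgg, Ahsg, Serpina1d, Ambp and Mup3, taken as all 14 probes that carry one of these 10 symbols in the platform annotation, out of 45281 probes and 19057 named genes. The genes were chosen by their knockout minus wild-type differences in the tibialis anterior, where they rank from 1 to 27 among 9112 detected genes, so their values in that comparison describe the choice and are given without a test. The rule names the genes and sets no threshold. The heart arrays played no part in the choice.

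The study compared mice lacking the microRNA miR-214 (KO) with wild-type mice (WT) in 3 settings. These are the P14 heart, taken 14 days after birth, the adult heart, taken at 8 weeks, and the tibialis anterior, the fast-twitch muscle along the shin, also taken at 8 weeks. Each of the 6 groups has 1 array, hybridised with material pooled from 3 mice, so no group has a replicate. All animals are labelled male and of mixed strain background, and the KO is described only as miR-214 KO, without the allele or the extent of the deletion. A bulk array cannot tell more cells of a type from more RNA per cell.

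Hepatocytes are the main source of most circulating proteins. They load lipoproteins with apolipoproteins, secrete the fibrinogen chains that form a clot, and release carriers and protease inhibitors into the blood. Striated muscle is not a recognised source of fibrinogen or of the major urinary proteins, and these transcripts serve as markers of liver.

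The microRNA deleted in the KO is given by its mature sequences, credited to RefSeq (GRCm38.p6), with the seed, bases 2 to 8, in capitals. No array value of the microRNA itself was used here. Its host transcript Dnm3os read 6.44 and 6.35 at P14, 6.14 and 5.89 in the adult heart and 6.48 and 6.24 in the tibialis anterior (WT, then KO, normalized log2 intensity). Where this probe lies relative to the deletion is not given in the labels, so these values do not check the genotype.
mmu-miR-214-3p: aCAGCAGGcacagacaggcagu
mmu-miR-214-5p: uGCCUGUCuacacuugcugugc

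The promoter windows of the members were searched for letters linked to liver transcription factors. RefSeq windows of 300 bases, from 250 bases before to 50 after the start site in GRCm38.p6, were read for 8 members, leaving out Apoc1 and Ttr. Both strands were searched. The TATA box letters were TATAAA. The letters for HNF1 were GTTAAT, those for HNF4 were CAAAGTC and those for FOXA were TGTTTNC. The 4 windows that hold 2 or more matches are printed with the matches in capitals, the matches not overlapping one another.
Apoa1, chr9:46228380-46228679, + strand: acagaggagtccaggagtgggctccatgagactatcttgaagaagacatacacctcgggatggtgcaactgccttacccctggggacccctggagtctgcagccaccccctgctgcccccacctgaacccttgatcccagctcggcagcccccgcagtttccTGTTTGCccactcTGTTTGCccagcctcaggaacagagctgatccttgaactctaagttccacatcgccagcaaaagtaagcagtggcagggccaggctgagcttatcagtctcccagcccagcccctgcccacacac
Fga, chr3:83025903-83026202, + strand: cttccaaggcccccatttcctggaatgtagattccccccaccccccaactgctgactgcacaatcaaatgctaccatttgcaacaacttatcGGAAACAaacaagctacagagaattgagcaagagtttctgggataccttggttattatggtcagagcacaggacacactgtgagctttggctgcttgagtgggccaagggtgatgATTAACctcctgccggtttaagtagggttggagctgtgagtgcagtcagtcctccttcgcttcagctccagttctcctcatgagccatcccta
Ahsg, chr16:22891765-22892064, + strand: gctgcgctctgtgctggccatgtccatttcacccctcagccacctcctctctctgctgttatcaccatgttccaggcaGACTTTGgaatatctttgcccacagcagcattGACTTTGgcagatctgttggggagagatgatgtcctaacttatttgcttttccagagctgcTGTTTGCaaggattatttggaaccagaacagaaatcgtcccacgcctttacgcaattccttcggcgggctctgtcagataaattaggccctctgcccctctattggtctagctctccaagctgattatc
Serpina1d, chr12:103773584-103773883, - strand: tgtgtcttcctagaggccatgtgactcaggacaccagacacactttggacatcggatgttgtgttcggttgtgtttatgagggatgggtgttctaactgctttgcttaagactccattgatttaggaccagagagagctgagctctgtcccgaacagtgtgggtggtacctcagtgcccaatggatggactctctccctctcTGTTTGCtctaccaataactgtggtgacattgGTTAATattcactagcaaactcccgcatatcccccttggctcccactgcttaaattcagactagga
The FOXA letters were in 5 of the 8 windows, against 20.5% of 32851 mouse windows of the same length. The HNF1 letters were in 2 of 8 (7.1% of all windows), the HNF4 letters in 1 of 8 (4.44%) and the TATA letters in 0 of 8 (13.6%). A match is a description of the letters and not a binding site, and the part of these letters in the muscle differences was not tested.

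The arrays were of like quality. Between 14892 and 17979 probes were detected per array at a detection p under 0.01, and the tibialis anterior arrays of WT and KO had 14892 and 15062. A member probe was read on 22 to 62 beads per array. The sample labels were checked with sex-linked genes: Xist, expressed from the inactive X of females, was detected on all 6 arrays at 9.62 to 10.65 (normalized log2 intensity). The Y-linked genes Eif2s3y, Kdm5d and Uty passed detection only at P14 in WT, where they read 8.09, 4.98 and 4.80. The last 2 lay near that array's lowest detected signal, 4.73. Every array thus goes against its male label in Xist, 5 of them also in Eif2s3y, and the P14 pair differs in this respect, so heart values are also given by age.
By the myosins Myh6 and Myh4, tissue identity followed the labels. The heart myosin Myh6 read 14.77 to 14.90 on the heart arrays and 5.62 and 5.99 on the tibialis anterior arrays, and the fast myosin Myh4 read 13.65 and 13.57 on the tibialis anterior arrays and 4.27 to 5.19 on the heart arrays. Some other fast skeletal muscle genes were brighter on the KO heart arrays, as given below. Atp2a1 read 6.88 and 10.22 at P14 and 5.51 and 9.39 in the adult heart (WT, then KO).

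All 10 members were detected on both tibialis anterior arrays and were brighter on the KO array. Their differences ran from 2.39 to 3.08 on the normalized log2 scale, that is from 5.25-fold to 8.45-fold, with a median of 2.79. Of 9112 genes detected in this pair, 2.48% were at least 2-fold higher in the KO. The share at least 2-fold lower was 0.472%, and the members' 10 of 10 follows from how they were chosen. The median difference of all detected genes was -0.02. The members were within 1 log2 unit of one another in this difference, which also follows from a choice of genes that rank from 1 to 27 in it. Their WT levels ran from 5.61 to 8.20. The standard error over beads, which covers the reading of 1 array pair and not variation between mice, was 0.07 to 0.21 for these differences. A constant of 16 was added after background correction, which draws low values together, and with a constant of 0 the folds were 6.25 to 9.56.

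**Figure D1:**
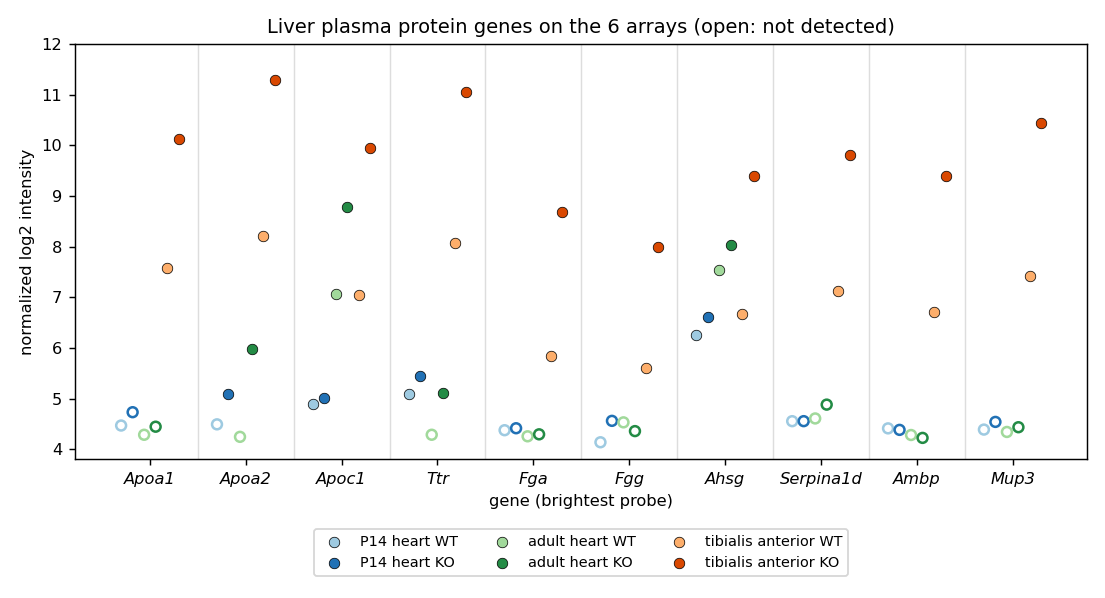
Normalized log2 intensity (vertical axis) of the brightest probe of each of the 10 genes (horizontal axis) on the 6 arrays, with 1 point per array, filled where detected and open where not. All 10 genes are filled on both tibialis anterior arrays with the KO above the WT, and 6 genes are open on all 4 heart arrays.

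Among the apolipoproteins, Apoa1 is the structural protein of high-density lipoprotein. It read 4.47 and 4.73 on the P14 WT and KO heart arrays, 4.29 and 4.45 on the adult heart arrays, and 7.58 and 10.12 on the WT and KO tibialis anterior arrays. Both muscle arrays thus stood above all heart arrays, on none of which Apoa1 was detected.
Apoa2, the second major protein of high-density lipoprotein, read 4.49 and 5.08 at P14, 4.24 and 5.98 in the adult heart, and 8.20 and 11.28 in the tibialis anterior (WT, then KO). It had the largest difference of the set by the brightest probes, at 3.08, and was also detected on both KO heart arrays and on neither WT heart array. Its second probe read 7.42 and 10.72 in the tibialis anterior, a difference of 3.31, but was not detected on any heart array.
Apoc1, a small apolipoprotein that modulates lipoprotein lipase, read 4.90 and 5.01 at P14, 7.07 and 8.77 in the adult heart, and 7.04 and 9.95 in the tibialis anterior. Its WT adult heart and WT muscle levels differed by only 0.02. The second Apoc1 probe gave 2.85 in the tibialis anterior, against 2.91 for the first.

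Among the carriers, Ttr, transthyretin, the carrier of thyroid hormone and of retinol-binding protein, read 8.07 in WT and 11.05 in KO tibialis anterior. In the heart it was near the lower limit, at 5.08 and 5.44 at P14 and at 4.29 (not detected) and 5.12 in the adult.
Mup3, a major urinary protein that binds pheromones in mice, read 7.43 and 10.44 in WT and KO tibialis anterior and 4.34 to 4.54 on the heart arrays, where it was not detected.
Ahsg, fetuin-A, a blood inhibitor of calcification, read 6.66 and 9.40 in WT and KO tibialis anterior. It was the only member whose WT muscle level lay clearly below the WT adult heart level, 7.53. Its second probe gave a muscle difference of 2.33 against 2.73, and second probes of the 4 genes that have one differed from the first by 0.06 to 0.40 in this difference.

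Of the fibrinogen chains, Fga, the alpha chain, read 5.84 and 8.68 in WT and KO tibialis anterior, and Fgg, the gamma chain, 5.61 and 8.00. Neither was detected on a heart array, where Fga read 4.26 to 4.41 and Fgg 4.14 to 4.56. Fgg had the smallest difference of the set, 2.39, and the widest bead error, 0.21. The protease inhibitors followed. Serpina1d, an alpha-1-antitrypsin gene, read 7.12 and 9.80 in the muscle, and Ambp, the precursor of alpha-1-microglobulin and bikunin, read 6.71 and 9.40. In the hearts Serpina1d read 4.55 to 4.88 and Ambp 4.22 to 4.41, without detection.

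Several of these genes have near-identical copies, and the probe sequences were not used here, so a probe may read more than 1 copy. The other alpha-1-antitrypsin genes Serpina1a, Serpina1b, Serpina1c and Serpina1e have 8 probes, of which 7 were detected in the tibialis anterior pair. The 4 detected on both arrays differed by 2.40 to 2.63, and the 3 undetected in WT had lower bounds of 1.92-fold to 3.42-fold. Of 8 probes for other Mup genes 4 were detected, 3 of Mup2 and 1 of Mup6. Of these, 3 differed by 2.28 to 2.73, the other, of Mup2, was undetected in WT and at least 4.90-fold higher, and the probes of Mup5, Mup20 and Mup21 were not detected. The values of Serpina1d and Mup3 are therefore uncertain as to the copy.

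In WT mice 8 members were brighter in the tibialis anterior than in the adult heart, the exceptions being Ahsg (-0.87) and Apoc1 (-0.02). In KO mice 10 of 10 were brighter in the muscle. The members were chosen on these tibialis anterior arrays, so the counts and folds in this paragraph follow in part from that choice. The share of all genes brighter in the muscle than in the adult heart is not given here. For the 6 genes not detected in any heart, the WT muscle level was at least 1.82-fold (Fgg) to 7.13-fold (Apoa1) above the adult heart, taking the lowest detected signal of the heart array as its limit, and the KO muscle level was at least 8.05-fold (Fgg) to 43.8-fold (Mup3) above it. Liver-type transcripts were thus already measurable on the WT tibialis anterior array.

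Other genes of the liver were read from lists chosen with earlier results of these data known. Of 110 listed genes on the array, outside the members, 68 passed detection in the muscle. The KO was brighter for 60 of the 68, with a median difference of 1.63, and 0 were at least 2-fold lower. Only 31 of the 68 were detected on both arrays, against 8338 of all 9112 detected genes. The median of these 31 was 1.87. Genes detected on the KO array alone entered through the array where they are high. The shares over all detected genes given below are therefore an unlike background. The measured difference passed 2-fold for 50 of the 68, of which 21 were detected on both arrays. Taken against the dimmest detected probe of the WT array where WT was undetected, a lower bound, 35 passed. Over all detected genes 46.2% were higher and 2.48% at least 2-fold higher. Setting each undetected value no lower than its array's dimmest detected probe gave a median of 1.05. By the lower bound 1.59% of all detected genes passed 2-fold higher. On the WT array 33 of the 110 genes were detected, and on the KO array 66.

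**Figure D2:**
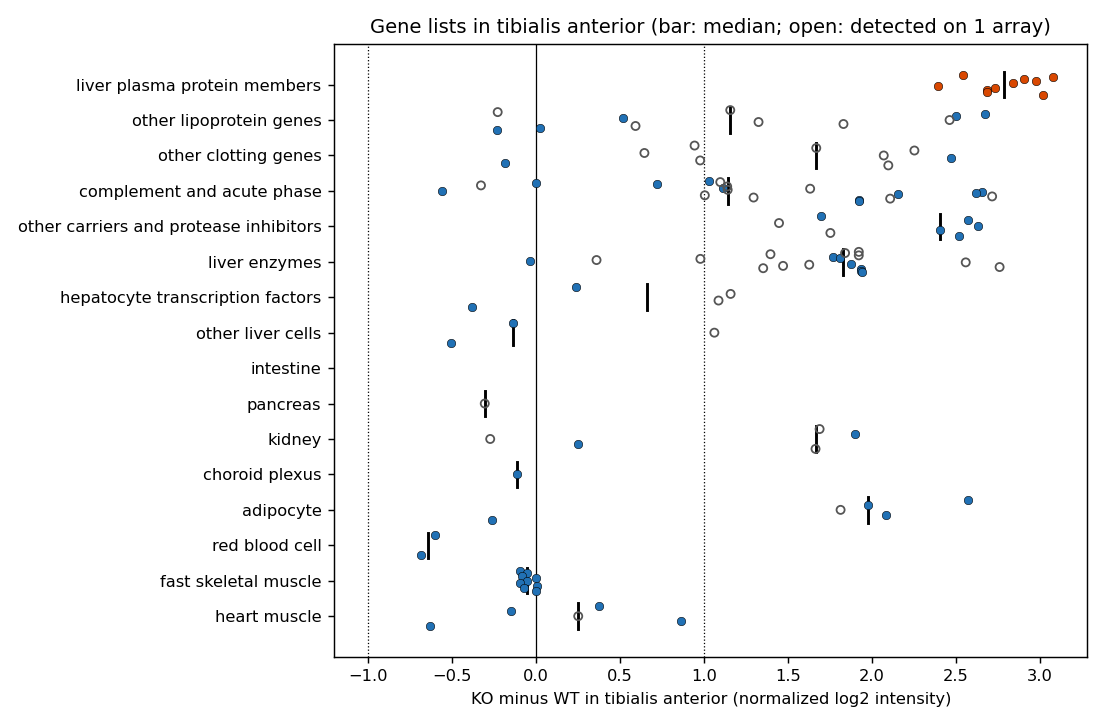
KO minus WT in tibialis anterior (horizontal axis, normalized log2 intensity) of each detected gene of the members and of 15 further lists (vertical axis), filled where detected on both arrays and open where on 1, with a bar at each median and dotted lines at 2-fold. The 10 members lie between 2.39 and 3.08, 15 liver enzymes lie past the 2-fold line by their measured difference (13 by the lower bound), and the 9 fast skeletal muscle genes lie near 0.

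Among other lipoprotein genes, 3 of 11 detected genes were at least 2-fold higher in the KO muscle by the lower bound (6 by the measured difference) and 2 were lower. Apoc3, which inhibits lipoprotein lipase, gave 2.67 and Apoc4 gave 2.50, and Apof, undetected in WT, was at least 4.95-fold higher. Apom, a carrier of sphingosine-1-phosphate, was at least 1.87-fold higher.
Among other clotting genes, 4 of 9 detected genes were at least 2-fold higher by the lower bound (5 by the measured difference), and 7 of the 9 were undetected in WT. Kininogen, Kng1, was higher by 2.47. Of the genes undetected in WT, the lower bounds were 2.93-fold for F10 (coagulation factor X), 2.88-fold for Serpinf2 (alpha-2-antiplasmin) and 2.16-fold for Plg (plasminogen). The beta chain of fibrinogen, Fgb, was not detected on any array by its single probe, at 4.19 to 4.31. Whether that probe responds to its transcript is not known from these files.
Of 19 detected genes of complement and the acute phase, 9 were at least 2-fold higher by the lower bound (15 by the measured difference). Haptoglobin, Hp, gave 2.66, hemopexin, Hpx, 2.62, and orosomucoid, Orm1, 2.15, and Itih1 was at least 4.15-fold higher.
Of 7 detected genes of other carriers and protease inhibitors, 6 were at least 2-fold higher by the lower bound (7 by the measured difference, with a median of 2.40), for example Serpina1b (2.63), Azgp1 (2.57) and Mup2 (2.52). Albumin, Alb, the most abundant plasma protein of the liver, was not detected on any array by its single probe, at 4.23 to 4.58, and the same limit holds for that probe.
Of 18 detected liver enzymes and transporters, 13 were at least 2-fold higher by the lower bound (15 by the measured difference). The transporter Slco1b2 was higher by 1.94 and Cyp2f2 by 1.94. Cyp2c70, a bile acid hydroxylase in mice, and Pon1, paraoxonase, were undetected in WT and higher by at least 5.77-fold and 5.38-fold.
Of 4 detected hepatocyte transcription factors, Foxa3 and Nr1h4 passed detection in the KO but not in WT, with lower bounds of 1.31-fold and 1.09-fold, while Hnf4a differed by 0.24 and Nr1i3 by -0.38. Of the list for other liver cells 3 of 12 genes were detected. Clec4g, a lectin of sinusoidal endothelium, was at least 1.54-fold higher, Sox9 differed by -0.51 and Stab2 by -0.14.

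**Figure D3:**
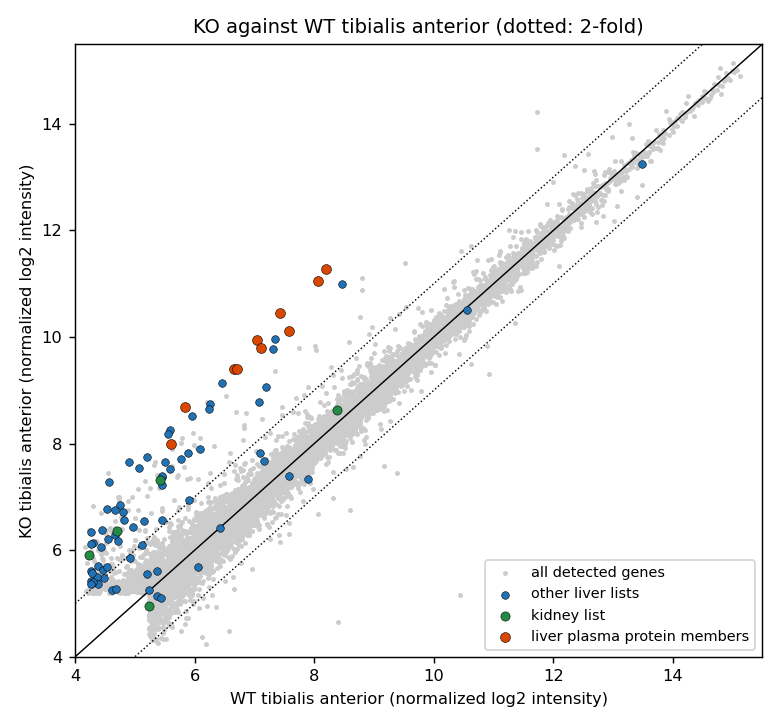
KO (vertical axis) against WT (horizontal axis) tibialis anterior in normalized log2 intensity for 9112 detected genes, with a solid line of equality and dotted lines at 2-fold. The 10 members and most detected genes of the other liver lists lie above the upper dotted line.

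Markers of other tissues were read beside these. The kidney list has 8 genes on the array. In the muscle 5 were detected, 2 of them at least 2-fold higher by the lower bound (3 by the measured difference). The proximal tubule phosphate carrier Slc34a1 was higher by 1.90, from 5.42 to 7.32, and the lower bounds were 2.20-fold for Kap and 1.61-fold for Umod, both undetected in WT. Slc12a1, detected in this pair on the WT array alone, differed by -0.27. Slc12a3, the brightest gene of the list, differed by 0.25, from 8.39 to 8.64. The summed normalized intensity of the list was 525 in WT and 796 in KO.
The adipocyte list has 8 genes on the array. In the muscle 4 of its 5 detected genes were at least 2-fold higher, among them Adipoq (2.57) and Scd1 (2.08), while Pparg differed by -0.26. Fabp4, Plin1 and Retn were not detected on either muscle array. The summed level of the list was 792 in WT and 2856 in KO. Of 11 intestine genes on the array 0 were detected, of 9 pancreas genes 1 (Ctrl, on the WT array alone) and of 5 choroid plexus genes 1 (Clic6, -0.11). The red blood cell genes Hba-a1 and Alas2 differed by -0.60 and -0.69. The part of any of these in the values of the members was not tested. The fast skeletal muscle list had a median of -0.06 over 9 genes and the heart muscle list one of 0.25 over 5 detected genes.

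In the hearts 6 members were detected on no array: Apoa1, Fga, Fgg, Serpina1d, Ambp and Mup3, whose heart values ran from 4.14 to 4.88. The heart test, a limma fit of age and genotype on the 4 heart arrays over 10680 genes detected on at least 1 of them, therefore took in 4 members. This fit has 1 residual degree of freedom and borrows most of its estimate of spread from other genes. In single pairs, 0 of the 4 were at least 2-fold higher in the KO at P14, where 0.236% of detected genes were (0.207% by the lower bound, 0.63% at least 2-fold lower and 50.1% higher by any amount). In the adult pair 2 were, Apoa2 and Apoc1, also by the lower bound, where 1.27% of detected genes were (1.19% by the lower bound, 0.516% at least 2-fold lower and 45.8% higher by any amount). The fit called 0.3% of genes for KO against WT (20 higher, which is 0.187%, and 12 lower) and 0 of 4 members, with Apoa2 ranked 171 of 10680 by its p-value.
Apoa2 differed between KO and WT hearts by 1.16 (SE 0.26, limma adjusted p = 0.0756), from a mean of 4.37 to 5.53. Since it was detected on KO heart arrays only, it entered the fit through the group where it is high, and its second probe differed by 0.09 at P14 and 0.11 in the adult, undetected on all 4. Against the lowest detected signal it was at least 1.27-fold higher at P14 and 2.36-fold in the adult.
Apoc1 differed by 0.91 (SE 0.30, limma adjusted p = 0.154), with 0.11 at P14 and 1.71 in the adult heart. Its second probe gave -0.02, undetected, and 1.51. Ttr differed by 0.59 (adjusted p = 0.167 by limma) and Ahsg by 0.42 (adjusted p = 0.207 by limma). The differences by age were 0.36 and 0.83 for Ttr, at least 1.30-fold in the adult, and 0.34 and 0.50 for Ahsg. Under other settings the count of called members changed, and so did that of all genes, from 32 of 10680 to 440 of 10683 with median centring, 376 of 10678 with an added constant of 50 and 557 of 10705 with averaged probes. The members called were 2 with median centring (Apoa2, adjusted p = 0.00023, and Apoc1, adjusted p = 0.00748), 1 with an added constant of 50 (Apoa2, adjusted p = 0.0258) and 2 with averaged probes (Apoc1 and Ahsg, adjusted p of 0.0488 and 0.0424), all by limma.
Genes of the fast skeletal muscle list were brighter on the KO heart arrays. At P14 6 of 9 detected genes were at least 2-fold higher, with a median of 2.68, and in the adult 3 of 6, with a median of 1.70. The fit called 3 of its 9 genes, among them Mylpf, a fast myosin light chain, higher by 2.63 (limma adjusted p = 8.22e-05). Its part in the heart values of the members was not tested.

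**Figure D4:**
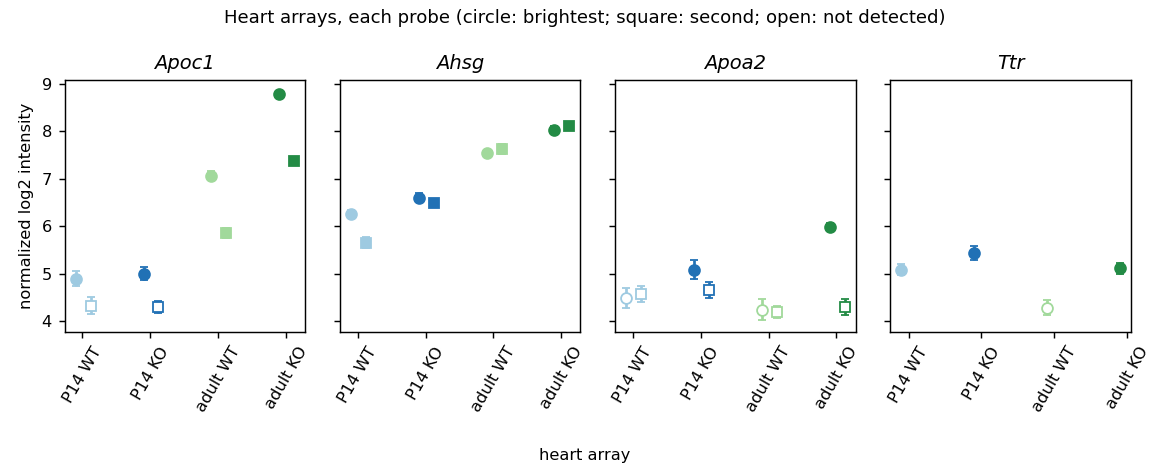
Normalized log2 intensity (vertical axis) on the 4 heart arrays (horizontal axis) for each probe of Apoc1, Ahsg, Apoa2 and Ttr, with circles for the brightest probe, squares for the second, open symbols where not detected and bars for the bead standard error. Apoc1 and Ahsg stand higher on both adult arrays than on both P14 arrays, and the second probe of Apoa2 is open on all 4.

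By age, the fit called 2 members. Apoc1 rose from a mean of 4.95 at P14 to 7.92 in the adult, by 2.97 (SE 0.30, limma adjusted p = 8.21e-05), and both adult arrays lay above both P14 arrays. Ahsg rose from 6.43 to 7.78, by 1.35 (SE 0.17, limma adjusted p = 0.000273), again without overlap. The share of all genes without such overlap is not given here, so the lack of overlap adds nothing to the fit. Of all 10680 genes 20.5% were called for age, 10.3% as higher in the adult, so 2 of 4 members called is to be read against that share. Apoa2 differed by 0.32 (95% interval -0.26 to 0.91, limma adjusted p = 0.425) and Ttr by -0.56 (95% interval -1.02 to -0.10, limma adjusted p = 0.085).
Other plasma protein genes of the lists were among those called higher in the adult heart. Hp rose by 4.15 (limma adjusted p = 2.21e-07) and Kng1 by 1.82 (limma adjusted p = 0.000148). Of 33 tested genes of the other liver lists 15 were called higher and 1 lower, with a median of 0.37, against -0.01 over all genes. The adipocyte list moved with these. All 6 of its tested genes were called higher in the adult heart, with a median of 2.79, and Adipoq rose by 4.50 (limma adjusted p = 6.11e-08). Its part in the values of Apoc1 and Ahsg was not tested.

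Over the 6 arrays the members resembled one another, and the likeness is a description in which the difference between muscle and heart and the KO tibialis anterior array carry most of the weight. Each of 8 members had a Pearson correlation of 0.979 to 0.996 with the mean profile of the set, over 6 arrays that also enter that mean. Apoc1 (0.753) and Ahsg (0.747), both detected on adult heart arrays, were lower. Among 158 genes outside the lists with a difference of at least 1 in the muscle, the 8 with the profile most like the mean were Uroc1 (0.996), Klk1 (0.995), Mup6 (0.995), Mat1a (0.993), Pgc (0.989), Ugt2b36 (0.988), Clps (0.987) and Rdh7 (0.986). Mat1a, the liver methionine adenosyltransferase, read 5.98 and 8.20 in WT and KO tibialis anterior. Uroc1, urocanase of histidine breakdown, read 5.35 and 6.41, and Pgc, the precursor of gastricsin in the stomach, read 5.62 and 7.58.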

How the data were processed

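Per the labels, cRNA made from total RNA carried Cy3 and was read on Illumina bead arrays for the mouse. The deposited scanner table holds, per the file headers, a mean intensity, its bead error, a bead count and a p-value of detection for each probe and array. The authors' processed intensity values keep the rank order of the scanner signals and depart by at most 0.343% from the averaged sorted signals, and how they were made is not stated in the labels.

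The deposited intensities were corrected for background by normexp in limma 3.58.1 (R 4.3.3), which took its negative controls from the detection p-values. An offset of 16 was added, the 6 arrays were quantile normalized and log2 was taken. A probe with a detection p under 0.01 counts as detected. Of 45281 probes, 34885 have 1 symbol, 18 several and 10378 none in the platform annotation. Each of 19057 genes is given by its brightest probe, and further probes of members are named. Where a gene was detected on 1 array of a pair, the fold is a lower bound against the dimmest detected probe of the other array, or the gene's own value there if brighter. Pairs of single arrays have no test. On the 4 heart arrays limma (lmFit, eBayes with trend) fitted age and genotype, with Benjamini-Hochberg adjustment over 10680 genes and a threshold of 0.05. For KO against WT the fit was tested on simulated data, where it found changed genes but made more false calls than its nominal rate. The age comparison was not tested in this way. Over 20 runs with 200 changed genes, the fit called 31.8% of 1.5-fold, 87% of 2-fold and 99.9% of 4-fold changes. It made a mean of 30.5 false calls among 10680 genes. On the heart arrays the fit called 32 of 10680 genes for KO against WT. With 1 array per age and genotype, its p-values rest on 1 residual degree of freedom and a spread borrowed mostly from other genes. These p-values do not measure variation between replicate arrays or between mice, and the number of arrays limits the precision.

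The members and the gene lists were chosen with earlier results of these data known. Named beside the members and their paralogs are up to 4 detected genes of each list with the largest absolute difference in the tibialis anterior, and the 8 genes outside the lists with the profile most like the members' mean and a difference of at least 1. Alb, Fgb, Dnm3os, the sex-linked genes and the genes under other observations were chosen after their values were seen. Alternatives were no background correction, median centring, the authors' values, offsets of 50 and 0 (the latter added after seeing the data), averaged probes, other detection filters and eBayes without trend.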

Additional observations from a re-analysis of the deposited data

Results flagged for a closer look

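Cyp2f2, a cytochrome P450 of mouse airway and liver, moved in opposite directions in 2 settings on arrays where it was detected. Its KO minus WT difference was -1.71 in the adult heart, from 9.61 to 7.90, and 1.94 in the tibialis anterior, from 5.59 to 7.52. With 1 array per group the difference between the settings was not tested. It was the only one of 57 named genes with a change of at least 2-fold in each direction.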

How the results depend on the processing

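The 10 members stayed at least 2-fold higher in the KO tibialis anterior under each of 7 alternatives, with no direction reversed. Their median difference, 2.79, was 2.40 without background correction, 2.40 with the authors' processed values, 2.41 with an offset of 50 and 3.00 with an offset of 0. The count of all genes at least 2-fold higher there ranged from 99 (detected on both arrays) to 373 (offset of 0), against 226. The 50 other liver genes past 2-fold by the measured difference became 32 without background correction, with the authors' values or with an offset of 50, and 21 among genes detected on both arrays. Their median, 1.63, was 0.92 under each of the first 3 settings, 1.38 with median centring, 1.43 with averaged probes, 1.87 among genes detected on both arrays and 1.05 with undetected values raised. For KO against WT hearts, the 32 genes called became 52 without background correction, 440 with median centring, 49 with the authors' values, 376 with an offset of 50, 557 with averaged probes, 14 with detection on all 4 arrays and 12 without trend. The members called, 0, became 2 with median centring, 1 with an offset of 50 and 2 with averaged probes. The cause was not tested. For age the 2 members called remained 2 or became 3, and the difference of Apoa2, which was not called, reversed to -0.021 (adjusted p = 0.953 by limma) with averaged probes. Single probes near the detection limit bound what the heart arrays can show. No paired analysis was possible because each group has 1 array, so no replicate numbers pair samples. The heart fit does compare genotypes within each age.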

Other observations

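Some transcripts of further organs were also brighter in the KO tibialis anterior, as values of genes chosen after they were seen. In the lists above, 0 of 11 intestine genes and 1 of 9 pancreas genes (Ctrl, on the WT array alone) were detected in this muscle. Of the 5 detected kidney genes, 2 were at least 2-fold higher by the lower bound. The stomach genes Pgc (1.96, from 5.62 to 7.58) and Gkn1, a gastrokine (1.34, from 5.45 to 6.79), were detected on both muscle arrays and not on the heart arrays. Clps, colipase of the exocrine pancreas, and Slc6a19, an amino acid carrier of kidney and gut, passed detection in the KO muscle but not in WT, with lower bounds of 2.88-fold and 3.40-fold. The pancreatic amylase gene Amy2a5 was bright in both, at 10.20 and 10.06, and also in the adult hearts, at 9.52 in WT and 9.54 in KO. Other differences were 2.28 for the liver gene Fgl1, 2.32 for the hepcidin gene Hamp2 and 2.36 for the glutathione transferase gene Gsta3, and Asgr1, the asialoglycoprotein receptor of hepatocytes, was at least 2.58-fold higher. Krt8 and Krt18, keratins of simple epithelia, were undetected in WT muscle, with lower bounds of 1.91-fold and 1.92-fold. Hamp2 was also higher in the adult KO heart, by 1.82. Gsta3 was bright in the adult hearts too, at 9.34 in WT and 9.96 in KO.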
